A study of Mus musculus with 6 samples.

Results

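The CNC and MAF transcription factors are basic leucine zipper proteins. The CNC and BACH members pair with small MAF proteins on antioxidant response elements. The mRNAs of all these factors were read on expression arrays of C2C12 cells, a mouse myoblast line, after silencing of PARP2. The set holds 9 of the 19938 genes that could be read: the CNC activators Nfe2l1, Nfe2l2 and Nfe2l3, the BACH repressors Bach1 and Bach2, the large MAF gene Maf, and the small MAF genes Maff, Mafg and Mafk. Genes were chosen by name, with earlier results of these data known. Each was read from the brightest probe set whose annotation names that gene alone, and all 9 had exactly 1 such probe set. The shPARP2 cells had received lentiviral shRNA against PARP2 and the scPARP2 cells a scrambled shRNA (40 MOI in the protocol), with 3 samples of each, 1 per array, and no other treatment named in the labels. Both groups descend from the same C2C12 parent and were kept under puromycin selection. Each is 1 transduced line, so that silencing cannot be told apart from other differences between the lines. The sources do not state if each sample was a culture of its own, so p-values reflect the spread among these 3 samples, which could be technical.

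CNC proteins bind DNA only as heterodimers with a small MAF protein. NRF2, encoded by Nfe2l2, activates genes of glutathione synthesis, quinone reduction and NADPH supply, while BACH1 occupies the same elements as a repressor that heme removes. Small MAF proteins have no transactivation domain, so their homodimers repress. Large MAF proteins such as c-MAF carry an activation domain of their own and act in lens, lymphocytes, macrophages and fast muscle fibres.

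In shPARP2 cells the mRNAs of the small and large MAF genes changed, and those of the 5 CNC and BACH genes did not pass the test. Maff and Mafk were 2.79-fold and 2.33-fold higher, Maf was 3.86-fold lower and Mafg was 1.20-fold lower than in scPARP2 cells. By RT-qPCR of shPARP2 and scPARP2 C2C12 cells, the study reported no difference in Mafg, Mafk or Nfe2l2 mRNA. It could not detect the Maff transcript. Why the assays differ was not tested. In limma, at an adjusted p under 0.05 over all probe sets, 2 of the 9 genes rose and 2 fell. Among all genes, 12.4% rose and 11.6% fell (24.0% either way), and among all 35556 probe sets 9.41% rose and 9.14% fell (18.5% either way). The groups did not overlap for the same 4 of 9 genes, against 42.1% of all genes. The median log2 fold change of the 9 genes was -0.05, beside -0.02 for all genes. These are bulk samples, in which fewer cells of a type and less RNA per cell cannot be told apart.

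Parp2, the silenced gene, read 7.86, 8.14 and 7.91 on the log2 scale in shPARP2 cells, against 8.94, 9.13 and 9.05 in scPARP2 cells, which leaves 47.6% of the signal (log2 fold change -1.07, standard error 0.10, adjusted p = 0.00103 from limma). Array medians ran from 7.04 to 7.18. Replicates were less alike among shPARP2 arrays (the SD of a probe set was 0.142 at the median) than among scPARP2 arrays (0.0753). Of 8 myoblast markers, all above the median signal, 6 rose and Myod1 and Megf10 did not pass the test. By comparison, 12.4% of all genes rose. The largest log2 fold changes of the markers were those of Myf5 (1.13), Itga7 (0.96), Myog (0.83) and Chrna1 (0.67). Des, which also rose (adjusted p = 0.0449 from limma), lost its call with quantile normalization and with median centring. It also lost it without any array other than shPARP2 replicate 3, and each of these settings left 5 higher markers. The summed linear signal of the 8 markers was 18500 to 22378 in shPARP2 cells and 13780 to 14152 in scPARP2 cells. Myod1, the myogenic determination factor, read 9.79, 10.19 and 8.89 in shPARP2 cells, against 9.79, 9.85 and 9.82 in scPARP2 cells, so that shPARP2 replicate 3 stood apart.

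The antioxidant response element (ARE) is the site that CNC and small MAF dimers read, and its core was looked for in the promoters of the factors themselves. RefSeq promoter windows (mouse build GRCm38.p6, 250 bases before to 50 after a transcript start) were at hand for 8 of the 9 genes, in 14 windows; none was used for Maf. The core TGACNNNGC, searched on both strands, occurred in 4 of these 8 genes, beside 14.0% of 27025 genes. By window, it occurred in 4 of 14, beside 12.4% of all windows. The 4 genes are Nfe2l2 and all small MAF genes. Their sites are shown with the core in capitals, read along the strand that carries it.
Nfe2l2, chr2:75704885-75704913: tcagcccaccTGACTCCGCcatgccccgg
Maff, chr15:79346499-79346527: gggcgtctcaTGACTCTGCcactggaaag
Mafg, chr11:120633751-120633779: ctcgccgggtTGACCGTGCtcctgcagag
Mafk, chr5:139791513-139791541: tccccagtacTGACACCGCttccgggatc

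The core lay on the gene's own strand for Nfe2l2 (240 to 232 bases before the start) and for Maff (112 to 104 bases before). It lay on the opposite strand for Mafg (222 to 214 bases before) and for Mafk (13 to 5 bases before). The Mafg window belongs to a transcript start inside the annotated gene (chr11:120625117-120634955). Its core therefore lies within the gene. Of these 4 genes, Maff and Mafk rose, Mafg fell and Nfe2l2 did not pass the test. A match describes letters only and does not show binding. The 250 bases before the first start of the pair that rose follow, on the gene's strand, with the core or its reverse complement in capitals.
Maff, chr15:79346371-79346620 (+): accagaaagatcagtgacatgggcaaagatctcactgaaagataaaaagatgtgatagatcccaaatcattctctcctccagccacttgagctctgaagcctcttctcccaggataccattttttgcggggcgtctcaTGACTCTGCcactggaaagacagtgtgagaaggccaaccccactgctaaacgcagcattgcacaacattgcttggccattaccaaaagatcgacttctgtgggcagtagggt
Mafk, chr5:139791286-139791535 (+): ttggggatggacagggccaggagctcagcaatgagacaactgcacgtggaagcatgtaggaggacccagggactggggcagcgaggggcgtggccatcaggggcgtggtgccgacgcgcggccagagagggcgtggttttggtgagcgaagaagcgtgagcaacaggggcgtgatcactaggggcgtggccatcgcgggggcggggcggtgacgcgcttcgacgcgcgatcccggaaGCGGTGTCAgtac

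The window of Mafk held 31 CpG sites at 68.3% GC, beside medians of 7 and 52.7% over 32851 windows. The 3 windows of Maff held 5, 21 and 14 CpG sites at 50.3%, 61.3% and 59.7% GC, so that only the first of them was below the medians. High values were not particular to the genes that rose. Mafg, which fell, held 39 CpG sites at 69.7% GC. Bach1 (31 at 69.7%) and Nfe2l2 (18 at 68.7%) did not pass the test, nor did Nfe2l1, with 11 to 25 CpG sites per window. The windows of Nfe2l3 and Bach2 held 7 each. The TRE motif TGACTCA, bound by AP-1, was in none of the 14 windows, beside 5.20% of all windows. The CRE motif TGACGTCA was in 1, the second window of Maff, 29 to 22 bases before that start, beside 1.79% of all windows. The MAF half-site TGCTGAC, whose last letters can overlap an ARE core, was found for Nfe2l1 alone (at 1 position that 3 overlapping windows share), beside 4.67% of all windows.

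Maff (chr15:79346621-79359078) is a small MAF gene known for induction by stress and growth factors. It read 10.02, 10.04 and 10.11 on the log2 scale in shPARP2 cells, against 8.56, 8.63 and 8.54 in scPARP2 cells. Every shPARP2 array was above every scPARP2 array, with 1.39 log2 units between the nearest of them. The means were 10.06 ± 0.05 in shPARP2 and 8.58 ± 0.05 in scPARP2 cells (SD, n = 3 each), a log2 fold change of 1.48 (95% confidence interval 1.32 to 1.64, adjusted p = 8.70e-05 from limma). This was the 144th highest change of 19938 genes.

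Mafk (chr5:139791536-139802653) encodes the small MAF first studied as the partner of NF-E2 p45 in erythroid cells. Its log2 values were 10.29, 10.20 and 10.64 in shPARP2 cells, against 9.17, 9.14 and 9.16 in scPARP2 cells. The scPARP2 arrays lay within 0.04 of each other, whereas shPARP2 replicate 3 was the highest of its group, and the groups were 1.02 apart. The log2 fold change was 1.22 (95% confidence interval 0.93 to 1.51, adjusted p = 0.00130 from limma), with means of 10.38 ± 0.23 in shPARP2 and 9.16 ± 0.02 in scPARP2 cells (SD, n = 3 each). Without shPARP2 replicate 3 it was 1.09, the lowest of the settings tried.

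Mafg (chr11:120625117-120634955), the remaining small MAF gene, overlaps the lncRNA gene Gm17586 in the annotation. In shPARP2 cells it read 10.16, 10.18 and 10.32 on the log2 scale, against 10.49, 10.44 and 10.50 in scPARP2 cells. All shPARP2 arrays were lower, but only by 0.13 between the nearest values of the groups. The means were 10.22 ± 0.08 in shPARP2 and 10.48 ± 0.03 in scPARP2 cells (SD, n = 3 each), and the log2 fold change of -0.26 (95% confidence interval -0.43 to -0.09) passed narrowly (adjusted p = 0.0492 from limma). The call ended when arrays were centred on their medians (adjusted p = 0.0598 from limma) and without any array other than shPARP2 replicate 3 (0.0790 to 0.182).

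Maf (chr8:115703253-115706894) encodes c-MAF. Its values were 8.38, 8.24 and 8.16 on the log2 scale in shPARP2 cells and 10.20, 10.24 and 10.19 in scPARP2 cells. The groups were 1.81 apart at their nearest values, while the shPARP2 arrays spanned 0.22. Means of 8.26 ± 0.11 in shPARP2 and 10.21 ± 0.02 in scPARP2 cells (SD, n = 3 each) gave a log2 fold change of -1.95 (95% confidence interval -2.14 to -1.76, adjusted p = 5.43e-05 from limma). The shPARP2 cells thus held 25.9% of the scPARP2 signal, and its log2 fold change was the 81st lowest of 19938 genes.

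**Figure D1:**
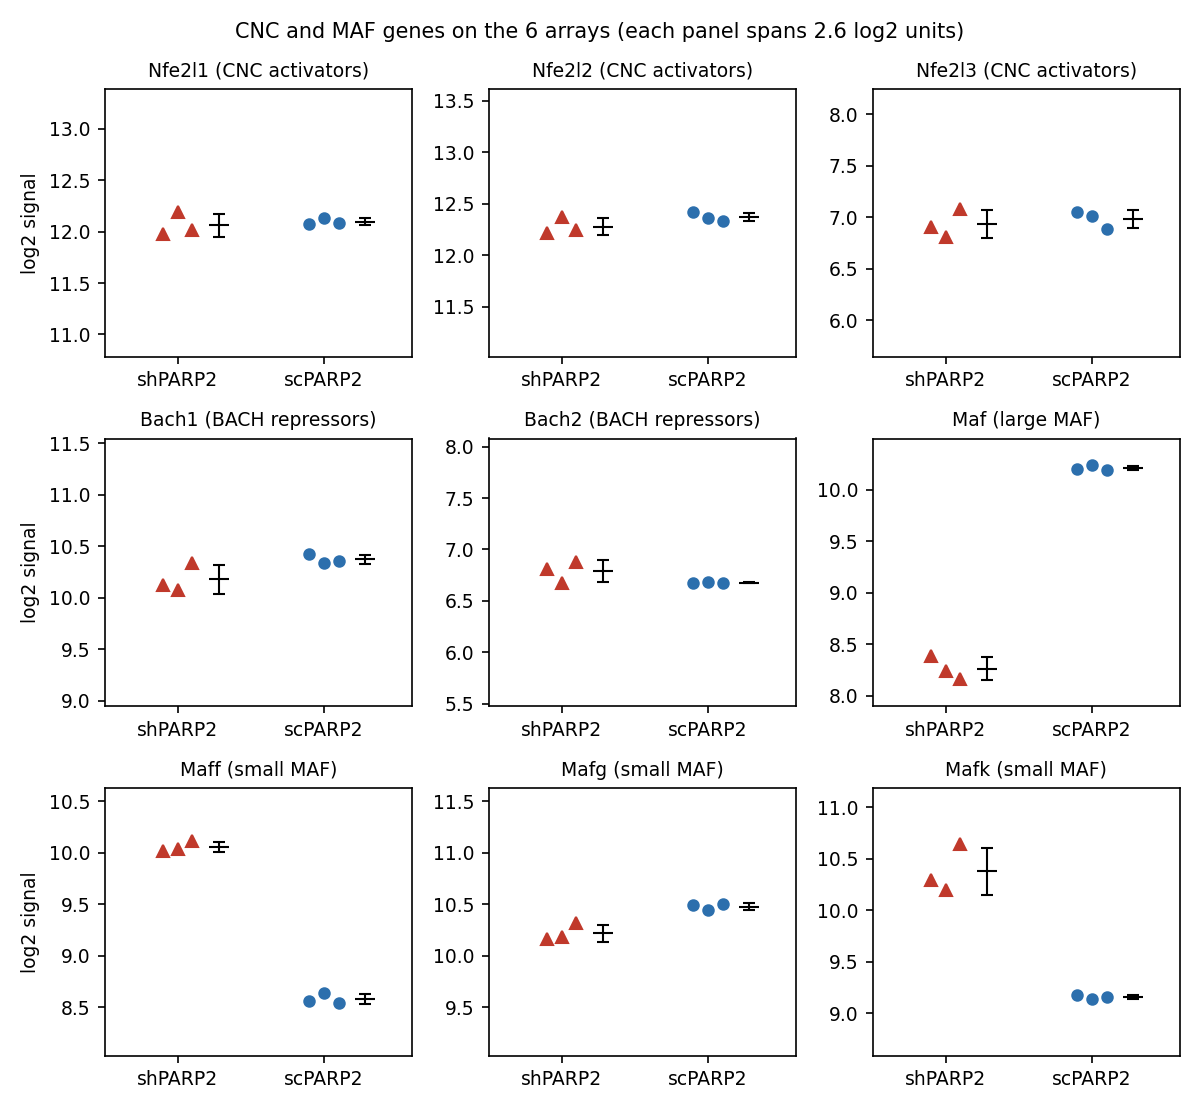
Log2 signal (vertical axis, each panel spanning the same 2.6 log2 units around its own centre) of the 9 genes in shPARP2 cells (red triangles, left) and scPARP2 cells (blue circles, right), 1 point per array, with the mean and SD in black. Maf, Maff, Mafg and Mafk have groups that do not overlap, and the gap of Mafg (0.13) is far narrower than those of Maf (1.81), Maff (1.39) and Mafk (1.02).

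Macrophages and lymphocytes are cells in which c-MAF is abundant, and markers of other cell types were read beside the change of Maf. Of 8 symbols listed as macrophage and leukocyte markers, with Adgre1 also under an older name, 6 were read. Of these, 1 fell and 5 did not pass the test, while 11.6% of all genes fell. The one that fell was Cd68, a lysosomal glycoprotein found outside macrophages too, at 7.37, 7.37 and 7.41 in shPARP2 cells, against 8.07, 8.20 and 8.04 in scPARP2 cells (log2 fold change -0.72, standard error 0.07, adjusted p = 0.00119 from limma). Lyz2, the lysozyme of myeloid cells, went the other way without passing, at 6.41, 6.72 and 6.27 in shPARP2 cells, against 5.43, 6.05 and 5.90 in scPARP2 cells (log2 fold change 0.67, adjusted p = 0.0565 from limma). The defining markers Ptprc, Adgre1 and Csf1r were dim, at percentiles 29.5, 17.9 and 28.9 of all probe sets. The summed linear signal of the list was 519 to 557 in shPARP2 and 608 to 649 in scPARP2 cells. This sum leans on Cd68, the brightest of the 6 genes (percentile 59.5), and does not describe the list as a whole. The median log2 fold change of the 6 was -0.03. None of 7 epithelial and endothelial, 3 adipocyte or 3 erythroid markers passed the test. The part of these cell types in the change of Maf was not tested.

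Nfe2l2 (chr2:75675513-75704663), which encodes NRF2, read 12.21, 12.37 and 12.25 on the log2 scale in shPARP2 cells and 12.42, 12.36 and 12.34 in scPARP2 cells. The groups overlapped, since shPARP2 replicate 2 lay above 2 of the scPARP2 arrays. The log2 fold change was -0.09 (95% confidence interval -0.27 to 0.08, adjusted p = 0.470 from limma), with means of 12.28 ± 0.08 in shPARP2 and 12.37 ± 0.04 in scPARP2 cells (SD, n = 3 each). The interval runs from 83.2% to 106% of the scPARP2 signal.

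Nfe2l1 (chr11:96817414-96829968) encodes the CNC factor that sits in the endoplasmic reticulum membrane and drives proteasome genes when proteasomes are impaired. It read 11.98, 12.19 and 12.01 in shPARP2 cells, against 12.07, 12.13 and 12.08 in scPARP2 cells, whose narrow range lay inside that of the shPARP2 arrays. The log2 fold change was -0.04 (95% confidence interval -0.23 to 0.15, adjusted p = 0.826 from limma). Nfe2l3 (chr6:51432669-51458772), a related factor of placenta and colon, was dim. It read 6.91, 6.81 and 7.08 in shPARP2 cells, against 7.04, 7.01 and 6.88 in scPARP2 cells, with overlapping groups and a log2 fold change of -0.05 (95% confidence interval -0.27 to 0.18, adjusted p = 0.802 from limma).

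Bach1 (chr16:87698954-87733346), the widely expressed BACH repressor, read 10.13, 10.07 and 10.34 in shPARP2 cells, against 10.42, 10.33 and 10.36 in scPARP2 cells. Of the shPARP2 arrays, replicates 1 and 2 were below all scPARP2 arrays and replicate 3 was level with the lowest of them. The log2 fold change was -0.19 (95% confidence interval -0.41 to 0.02, adjusted p = 0.212 from limma), with means of 10.18 ± 0.14 in shPARP2 and 10.37 ± 0.05 in scPARP2 cells (SD, n = 3 each). Without shPARP2 replicate 3 it was -0.27 and passed the test (adjusted p = 0.0460 from limma).

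Bach2 (chr4:32238413-32586109), a repressor of B and T lymphocytes whose locus overlaps the lncRNA Bach2os, was dim. Its values were 6.81, 6.68 and 6.88 in shPARP2 cells, against 6.67, 6.68 and 6.67 in scPARP2 cells. Replicate 2 of the shPARP2 arrays fell inside the scPARP2 range, and the log2 fold change of 0.11 (95% confidence interval -0.06 to 0.29) did not pass the test (adjusted p = 0.385 from limma).

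**Figure D2:**
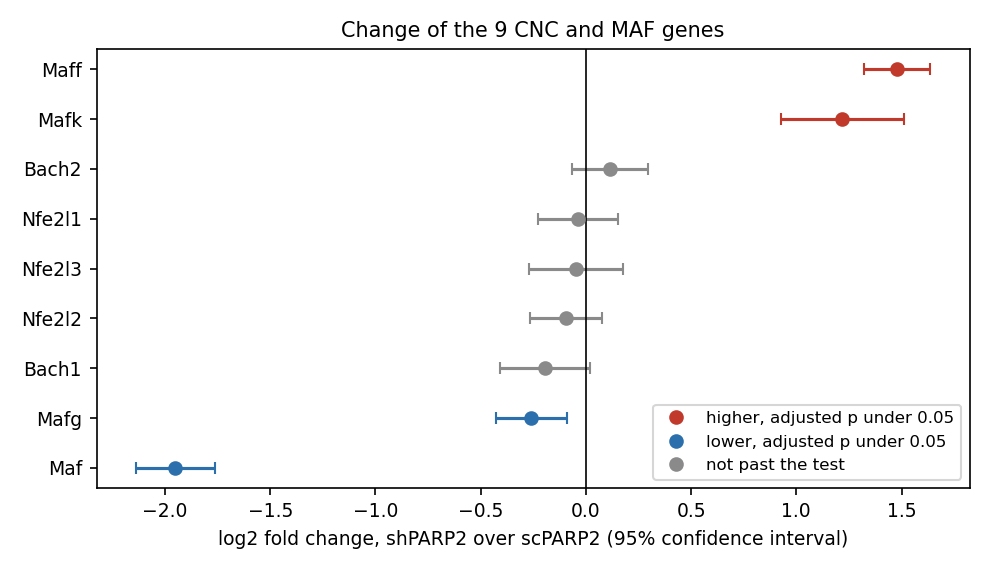
Log2 fold change, shPARP2 over scPARP2 (horizontal axis), of the 9 genes, with 95% confidence intervals from the limma fit. Maff (1.48) and Mafk (1.22) lie right of 0, Maf (-1.95) and Mafg (-0.26) lie left of it, and the intervals of the 5 CNC and BACH genes, between -0.41 and 0.29, include 0.

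Across the 5 genes that did not pass, log2 fold changes lay between -0.19 and 0.11, and their 95% confidence intervals leave room for changes between -0.41 and 0.29. NRF2 and BACH1 compete for elements, and the log2 value of Nfe2l2 minus that of Bach1 was formed within each array. It was 2.09, 2.30 and 1.91 in shPARP2 cells, against values between 1.98 and 2.03 on the 3 scPARP2 arrays. The difference of means, 0.10, was within the spread of the shPARP2 arrays (exact two-sided permutation test, p = 0.6, where 3 against 3 arrays allow no p below 0.1). Of the 9 genes, 6 had their highest shPARP2 value on replicate 3, as did 39.2% of all genes. The SD was wider in shPARP2 than in scPARP2 cells for 9 of 9 genes and for 78.4% of all genes.

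The proteins around these factors were described by lists, which were also chosen with earlier results of these data known. Of the relatives not in the set, Nrl and Mafa, large MAF genes of retina and pancreatic islets, had log2 fold changes of -0.11 and 0.08 (adjusted p = 0.588 and 0.630 from limma). Nfe2, the erythroid CNC gene, had one of -0.01 (adjusted p = 0.961 from limma).

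NRF2 is held low by KEAP1, which hands it to a CUL3 ubiquitin ligase, and by GSK3 with the beta-TrCP ligase. Of 19 symbols listed for NRF2 turnover, with 1 gene under 2 names, 17 were read. Of these, 2 rose, 2 fell and 13 did not pass, with a median log2 fold change of -0.06. These shares are near those of all genes (12.4% higher and 11.6% lower), so that the counts set the list apart in neither direction. Keap1 read 8.49, 8.65 and 8.59 in shPARP2 cells, against 8.93, 8.97 and 8.89 in scPARP2 cells, without overlap. This gave a log2 fold change of -0.36 with a standard error of 0.07 (adjusted p = 0.0154 from limma). The study's RT-qPCR, in contrast, found no difference in Keap1 mRNA between the lines. Amer1, a scaffold of the beta-catenin destruction complex that binds KEAP1, changed by -0.39 (adjusted p = 0.0290 from limma). In the other direction, Cul3 rose by 0.46 (adjusted p = 0.00743 from limma) and Gsk3b by 0.43 (adjusted p = 0.00611 from limma). The calls of Keap1 (highest adjusted p = 0.0757 from limma) and Amer1 (0.111) ended without scPARP2 replicate 1, 2 or 3, which left 0 lower genes. That of Amer1 also ended without shPARP2 replicate 1, which left 1 lower gene, and without shPARP2 replicate 2, whereas those of Cul3 and Gsk3b held without each array.

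NFE2L1 is cut free from the membrane by DDI2 after NGLY1 removes its sugars. Of 8 genes of this processing, 7 were read and Ogt, the O-GlcNAc transferase, alone passed, with a log2 fold change of 0.41 (adjusted p = 0.0199 from limma). It no longer passed without shPARP2 replicate 1 or scPARP2 replicate 1, 2 or 3 (highest adjusted p = 0.0854 from limma). Of 33 genes of proteasome subunits, known targets of NFE2L1, 7 rose, 4 fell and 22 did not pass, with a median of 0.05, beside 12.4% higher and 11.6% lower among all genes. The examples are Psmc6 (0.54) and Psmd14 (0.34), which rose, and Psmd7 (-0.50) and Psmb4 (-0.42), which fell. Only 1 rose without scPARP2 replicate 1, 2 or 3 and 4 without shPARP2 replicate 1 or 3. The lower subunit genes numbered 1 without shPARP2 replicate 1 or scPARP2 replicate 1, and 0 without scPARP2 replicate 2 or 3. Of the named subunits, Psmc6 passed without each array, and Psmd7, Psmb4 and Psmd14 each lost the call without scPARP2 replicate 2 or 3. With quantile normalization 7 subunit genes were lower, and with median centring 1 was.

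Of the ligases that remove BACH1 (3 genes read), Rbck1, also known as HOIL-1, fell by 0.55 on the log2 scale (adjusted p = 0.00307 from limma) in shPARP2 cells, and Fbxo22 and Fbxl17 did not pass the test. Among all genes, 11.6% fell.

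Genes that NRF2 activates fell more often than they rose. Of 35 listed, 32 were read. Of these, 15 fell, 2 rose and 15 did not pass, beside 11.6% lower and 12.4% higher among all genes. The median log2 fold change of the 32 was -0.29. Nqo1, a quinone reductase, read 7.28, 7.48 and 7.14 in shPARP2 cells, against 11.01, 10.99 and 10.93 in scPARP2 cells, a log2 fold change of -3.68 (adjusted p = 2.44e-05 from limma). The aldehyde dehydrogenase Aldh3a1 had a log2 fold change of -4.72 (adjusted p = 2.44e-05 from limma). The glutathione transferases Gsta3 and Gstm1 had changes of -3.21 and -2.25 (adjusted p = 1.90e-05 and 0.000447 from limma). The 2 that rose, named after their values were seen, were the carbonyl reductase Cbr3 (1.09) and malic enzyme Me1 (0.41). With any single array left out, 12 to 17 fell and 2 rose.

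BACH1 represses genes of heme and iron handling, many of which NRF2 activates. All 10 listed were read, and 4 fell, 1 rose and 5 did not pass, beside 11.6% lower and 12.4% higher among all genes. The median of the 10 was -0.23. All but Slc40a1 also stand in the list of NRF2 targets. Besides Nqo1, the iron exporter Slc40a1 (-2.58), biliverdin reductase Blvrb (-1.89) and ferritin light chain Ftl1 (-0.30) fell, and Me1 rose. Ftl1 lost its call without scPARP2 replicate 1, 2 or 3 (highest adjusted p = 0.0807 from limma), which left 3 lower genes. Hmox1, the heme oxygenase that is the best known BACH1 target, was named after its values were seen. It read 12.65, 12.66 and 12.64 in shPARP2 cells, against 12.61, 12.31 and 12.48 in scPARP2 cells, a log2 fold change of 0.18 that did not pass the test (adjusted p = 0.249 from limma).

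Some MAF proteins can also pair with Fos and Jun proteins, the subunits of AP-1, which pair in turn with ATF proteins. Of 10 such genes, 8 rose, none fell and 2 (Atf4 and Batf) did not pass, beside 12.4% higher and 11.6% lower among all genes. The median log2 fold change of the 10 was 0.61. Atf3, a stress-induced factor, read 11.65, 11.65 and 11.75 in shPARP2 cells, against 10.40, 10.31 and 10.35 in scPARP2 cells (log2 fold change 1.33, adjusted p = 0.000131 from limma). The others with the largest changes were Jun (1.14), Fos (1.02) and Junb (0.80). Without scPARP2 replicate 3, 4 of the 10 rose and Fos no longer passed (adjusted p = 0.0519 from limma), and with any other array left out 6 to 8 did.

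None of 11 known targets of large MAF factors passed the test, and their median was -0.10. The pair with the smallest p were Myh4, a fast muscle myosin (-0.30, adjusted p = 0.120 from limma), and the lens crystallin Cryaa (-0.20, adjusted p = 0.283 from limma). Only 2 of the 11 had a mean above the median signal of all probe sets, where changes are easier to see.

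**Figure D3:**
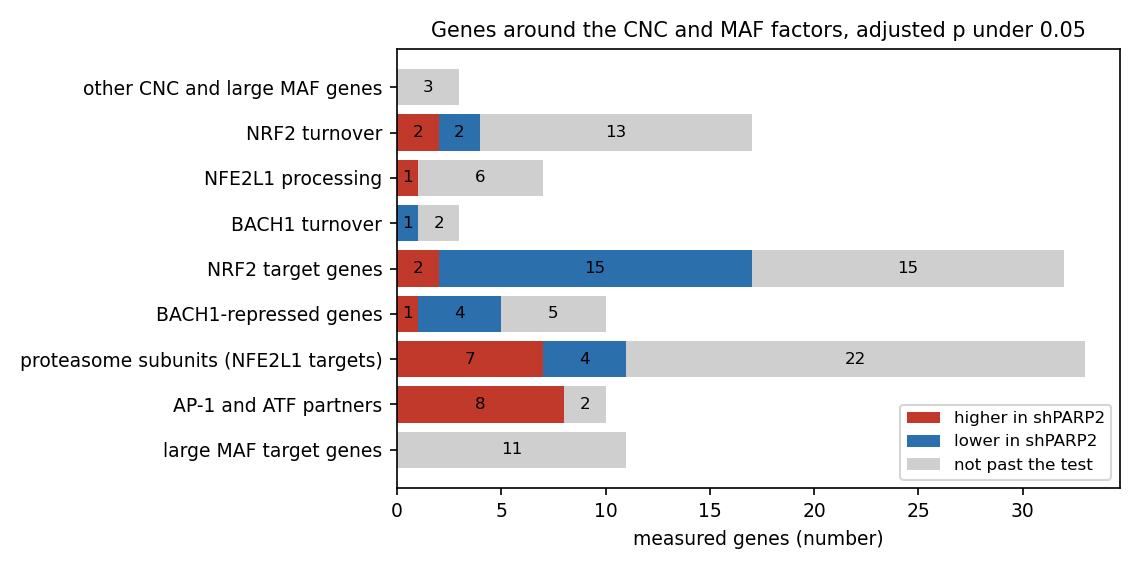
Number of measured genes (horizontal axis) in each list of genes around the CNC and MAF factors that were higher (red), lower (blue) or not past the test (grey) in shPARP2 relative to scPARP2 cells, at an adjusted p under 0.05 from limma. NRF2 target genes hold 15 lower and 2 higher genes, AP-1 and ATF partners hold 8 higher and none lower, and large MAF target genes hold none past the test. Among all genes, 12.4% were higher and 11.6% lower.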

How the data were processed

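Biotin-labelled RNA of 6 C2C12 samples had been hybridized to Affymetrix whole-transcript mouse gene arrays (Mouse Gene 1.0 ST). The deposited log2 values of 35556 probe sets were made by the authors with RMA, which corrects background, normalizes quantiles and summarizes probes, per the submitters' processing notes. The version of the software was not given in the sources used here. Values were used as deposited, from 1.27 to 14.6. Of the probe sets, 21789 name 1 gene, 1621 several and 12146 are not named here.

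A linear model without covariates was fitted by limma 3.58.1 (lmFit, then eBayes) under R 4.3.3, following the design in the study's methods. Over all probe sets, p-values were adjusted by Benjamini-Hochberg. A gene was read from its brightest single-gene probe set. Standard errors and 95% confidence intervals are moderated. The fit was tested on simulated data. A microarray has no read depth, and the number of arrays limits the precision.

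All 9 genes are given with every array. Named besides are Parp2, Keap1 and, per list, up to 4 genes with the largest change past the test, or where none passed 2 with the lowest p. Other list genes (Myod1, Megf10, Des, Lyz2, Ptprc, Adgre1, Csf1r, Atf4, Batf, Nfe2, Fbxo22, Fbxl17, Cbr3, Ftl1 and Hmox1, and Me1 among the NRF2 targets) were named after their values were seen. The members and lists were chosen with earlier results of these data known. Promoter windows are from RefSeq (GRCm38.p6), and gene positions are from the RefSeq gene table of that build.

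Alternatives were quantile normalization, median centring, single-gene probe sets only, removal of probe sets under the 40th percentile, a trended robust variance, array weights, a replicate block, an adjusted p under 0.01, a minimum of 1.5-fold, leaving out each array, and averaging of all probe sets per gene. For the lists, normalization, centring and leaving out arrays were added after the data were seen. Figures were drawn with matplotlib 3.10.9.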

Additional observations from a re-analysis of the deposited data

How the results depend on the processing

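Under the 16 alternatives, Maf (log2 fold change -2.01 to -1.88), Maff (1.45 to 1.51) and Mafk (1.09 to 1.31) kept their calls, and the count of higher genes was 2 in all of them. Only normalization, centring, array weights and leaving out an array could alter a fold change of these genes. The other settings could alter the calls alone. The count of lower genes was 1 with arrays centred on their medians, with an adjusted p under 0.01 and with a minimum of 1.5-fold, since Mafg lost its call. It ran from 1 to 3 with an array left out. Nfe2l1 ran from -0.10 to 0.00498 (above 0 without shPARP2 replicate 1), Nfe2l3 from -0.12 to 0.0127 (above 0 without shPARP2 replicate 2), and Nfe2l2 minus Bach1 from -0.00185 (without shPARP2 replicate 2) to 0.195. The cause was not tested. Over all probe sets, 1736 were higher and 1589 lower at an adjusted p under 0.01, and 1458 and 1327 with a minimum of 1.5-fold. Array weights gave 4941 lower. With an array left out, 1842 to 3449 were higher and 1761 to 3782 lower.

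Arrays of the 2 groups share replicate numbers, but deviations of same-numbered arrays correlated at -0.05, 0.09 and 0.01, so the numbers were not taken as pairs. With the replicate block, 2 of the 9 genes were higher and 1 lower (Mafg had an adjusted p of 0.107 from limma), and 2455 probe sets were higher and 2338 lower.

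With 3 arrays per group, the changes of Mafg (-0.26) and Bach1 (-0.19) lie near the limit of what passes. Nfe2l3 and Bach2 were below the median signal of all probe sets.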
